A study of Mus musculus with 16 samples.

Results

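The Src family kinases are protein tyrosine kinases at the inner face of the cell membrane, and the members listed for this account were Lck, Fyn, Blk, Lyn, Fgr and Src. Members were found as probe sets that the platform annotation pairs with 1 symbol, that of a member. This gave 5 probe sets of 4 genes, out of 12422 probe sets of 8251 named genes: 1 each for Fyn (100133_at), Fgr (94697_at) and Src (99388_at) and 2 for Blk (95893_at and 92359_at). Lck and Lyn were not analysed here.

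In lymphocytes these kinases act first when an antigen receptor is engaged. They phosphorylate the paired tyrosines of the receptor's signalling chains, which then recruit Zap70 in T cells or Syk in B cells. Csk holds the kinases inactive by phosphorylating their tail tyrosine, and the phosphatase CD45 (Ptprc) removes that phosphate. Fyn works beside Lck at the T cell receptor and downstream of SLAM family receptors, a route that NKT cells need to develop. Blk is best known as the B lymphoid member and is also found in some gamma-delta T cells. Fgr is mainly a kinase of myeloid cells and Src a broadly expressed one.

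Expression was measured on 16 single-colour arrays, 1 per sample, in 6 sorted mouse populations, which form 3 pairs, each of an innate-like population and its adaptive counterpart. NKT cells of the spleen (sorted as CD3+CD4+NK1.1+, n = 3) stand against splenic CD4T cells (CD3+CD4+NK1.1-, n = 3), and peritoneal B1 cells (IgM high, IgD intermediate, CD11b+, n = 2) against splenic B2 cells (IgM intermediate, IgD high, CD11b-, n = 2), all from wild type C57BL/6 mice. The third pair came from RTOC, an abbreviation the labels do not spell out. It sets CD8aaT cells (TCRb+CD8a+CD8b-, n = 3), selected with the agonist Smcy at 10 mM as the labels write it, against CD8abT cells (TCRb+CD8a+CD8b+, n = 3), selected with 100 nM. In that pair the dose and the cell type cannot be told apart, and no strain is given. In the B cell pair the cell type and the organ cannot be told apart. Each splenic or peritoneal sample held about 100000 sorted cells, and those from RTOC about 50000. The sources used here give neither ages nor any pooling of animals. In sorted populations, a shift in the mixture of cells and a change in RNA per cell cannot be told apart.

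The labelled cell types were read against their markers. The median of 8 pan-T markers lay between the 88.5th and 95.9th percentile of the array on the 12 T cell arrays and between the 34.7th and 41.6th on the 4 B cell arrays. The median of 11 pan-B markers lay between the 96.4th and 97.5th percentile on the B cell arrays. On the T cell arrays it was 58.9 to 61.3 in CD4T and 61.3 to 64.8 in NKT. In CD8abT it was 44.2 to 54.0 and in CD8aaT 48.2 to 54.4. Itgam, which encodes the CD11b of the B1 gate, was dim in B1 (log2 5.40 and 5.33) and in B2 (5.38 and 5.34). Array medians ran from 30.4 to 76.1 and differed mainly between pairs, so levels were compared across pairs only as percentiles, the rank of a probe set among the 12422 of its own array. Replicate 1 of NKT, CD4T, B1 and B2 stood apart, with a 5' 18S ribosomal control intensity of 675 to 1330 against 33.4 to 62.6 on the other arrays of these groups. The arrays' number limits the precision of every value.

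Promoters of the 3 members with both a probe set and an entry in the RefSeq table are shown so that the genes behind the levels can be seen. Each is a window of 300 bases that spans an annotated start site on build GRCm38.p6, 5′ to 3′ on the gene's own plus strand, with GC boxes (GGGCGG) and CCAAT boxes (CCAAT) of either strand in capitals. Fyn lies at chr10:39369549-39369848, Fgr at chr4:132973845-132974144 and Src at chr2:157424043-157424342.
Fyn: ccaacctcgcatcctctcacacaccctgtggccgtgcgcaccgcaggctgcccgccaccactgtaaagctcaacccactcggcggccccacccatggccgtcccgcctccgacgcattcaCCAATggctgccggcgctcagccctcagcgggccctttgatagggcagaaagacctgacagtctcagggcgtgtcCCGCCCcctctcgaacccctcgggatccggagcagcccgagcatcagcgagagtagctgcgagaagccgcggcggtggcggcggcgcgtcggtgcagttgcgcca
Fgr: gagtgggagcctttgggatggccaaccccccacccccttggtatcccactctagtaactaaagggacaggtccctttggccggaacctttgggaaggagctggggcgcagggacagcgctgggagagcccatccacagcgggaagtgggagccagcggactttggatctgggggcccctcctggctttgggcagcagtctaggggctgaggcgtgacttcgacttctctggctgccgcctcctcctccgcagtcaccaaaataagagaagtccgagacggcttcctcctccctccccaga
Src: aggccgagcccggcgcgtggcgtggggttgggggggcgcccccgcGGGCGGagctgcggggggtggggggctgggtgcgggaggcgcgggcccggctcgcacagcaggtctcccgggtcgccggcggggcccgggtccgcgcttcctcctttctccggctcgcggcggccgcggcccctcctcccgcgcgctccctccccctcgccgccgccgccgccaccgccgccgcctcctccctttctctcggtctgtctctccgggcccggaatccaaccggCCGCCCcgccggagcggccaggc
The Src window is 82.3% G and C and holds 47 CpG and 2 GC boxes, and a GC content this high or higher occurs in 0.42% of 32851 promoter windows of the same length, whose median is 52.7%. The Fyn window is 69% G and C, with 31 CpG, 1 GC box and 1 CCAAT box, and the Fgr window is 62.7%, with 11 CpG and neither box. A GC box occurs in 35.7% and a CCAAT box in 37.4% of all windows, so these matches are common, and none of the 3 windows holds TATAAA, which 13.6% of windows do. The matches describe the letters of the windows and nothing was tested on them.

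Fyn ranked high on every T cell array and lower on the B cell arrays. Its log2 intensity was 8.73, 8.82 and 8.97 in CD4T and 9.30, 8.83 and 8.91 in NKT. It was 7.20, 8.08 and 7.01 in CD8abT and 7.46, 8.33 and 7.21 in CD8aaT. It was 7.52 and 7.11 in B2 and 6.45 and 6.33 in B1. The splenic T cell arrays overlapped, the RTOC groups overlapped with replicate 2 highest in each, and both B1 arrays lay below both B2 arrays.

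Ranked within the array, Fyn stood at a mean percentile of 94.3 ± 1.6 in NKT and 94.0 ± 0.8 in CD4T (SD, n = 3), 89.8 ± 3.7 in CD8aaT and 88.6 ± 4.3 in CD8abT (n = 3), 71.9 ± 5.0 in B2 and 54.2 ± 0.2 in B1 (n = 2). Neighbours in this order overlapped among the 4 T cell groups, since CD8aaT reached the 93.8th percentile and CD4T began at the 93.4th. Every T cell array (84.7 or higher) lay above both B2 arrays (68.3 and 75.4), and these above both B1 arrays (54.0 and 54.4), where Fyn was near the middle of the array. The spread of Fyn in CD8aaT was wide, and 3.07% of probe sets had an SD at least as large there.

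Blk ranked higher on the B cell arrays than on the T cell arrays, the reverse of Fyn. Probe set 95893_at was 11.47 and 11.68 on the log2 scale in B2 and 11.50 and 12.02 in B1, from the 99.2nd to the 99.5th percentile. The values of B1 and B2 overlapped. In splenic T cells it was 7.02, 6.48 and 6.65 in CD4T and 7.57, 6.87 and 6.91 in NKT, also overlapping, with replicate 1 highest in each group. In CD8abT it was low on all arrays, at 4.31, 4.76 and 4.39, between the 34.7th and 46.0th percentile.

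In CD8aaT the same Blk probe set was uneven, at 4.06, 9.21 and 7.02 in replicates 1, 2 and 3. The 5' 18S control also differed between these arrays, at 66.5, 273 and 249, and it was 129, 857 and 716 in CD8abT, where Blk stayed low; its part in the Blk values was not tested. Replicate 1 lay below every CD8abT array, at the 30.3rd percentile. Replicates 2 and 3 lay above all of them, at the 97.1st and 84.3rd percentile, though below every B cell array. The SD of 2.59 (n = 3) was the highest of all 12422 probe sets in CD8aaT, where the median SD was 0.19. The rise from replicate 1 to replicate 2 (5.15) and that to replicate 3 (2.97) were each the highest of any probe set in that comparison of arrays. A rise of more than 2 in both was seen in 2 probe sets, this one and one of the MHC class I gene H2-D1, a family whose members share sequence. H2-D1 was 7.48, 9.93 and 9.65 in CD8aaT and had the same order in CD8abT, at 6.72, 9.30 and 8.99, where Blk spanned only 4.31 to 4.76.

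The other Blk probe set, 92359_at, gave the same broad picture at lower contrast. It was 7.83 and 8.24 in B2 and 7.93 and 8.80 in B1, the 80.3rd to 90.3rd percentile. On the splenic T cell arrays it lay from 5.05 to 5.31, below the middle of each array (35.4th to 44.1st percentile). In CD8abT it was 4.52, 4.06 and 4.15, and in CD8aaT 4.39, 5.25 and 4.61, so replicate 2 was again the highest and replicate 1 the lowest of that group. Its SD of 0.45 in CD8aaT was reached or passed by 8.54% of probe sets. Over the 16 arrays the percentiles of the 2 Blk probe sets correlated at r = 0.75, a description that rests mainly on the B and T cell groups being apart.

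By mean percentile of 95893_at the order was B1 (99.4), B2 (99.3), NKT (74.9 ± 6.6), CD8aaT (70.5 ± 35.5), CD4T (69.2 ± 5.6) and CD8abT (39.6 ± 5.8). B1 and B2 overlapped, as did NKT and CD4T, CD8aaT overlapped with every T cell group, and CD4T and CD8abT did not overlap. By 92359_at the order was B1 (86.3 ± 5.7), B2 (83.0 ± 3.7), CD8aaT (45.5 ± 9.4), NKT (41.4 ± 3.2), CD4T (38.6 ± 2.8) and CD8abT (34.9 ± 4.3). Here T cell groups next to each other in the order overlapped, and no T cell array reached the B cell range.

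Fgr and Src stayed near the middle of every array. Fgr ran from the 45.3rd to the 59.5th percentile over the 16 arrays and Src from the 47.0th to the 65.9th. RMA values alone do not show whether genes this dim were expressed. On the log2 scale Fgr was 5.29, 5.36 and 5.46 in CD8abT and 4.95, 5.16 and 5.18 in CD8aaT, so all CD8aaT arrays were lower. Src was 5.69, 5.54 and 5.69 in CD8abT and 5.11, 5.17 and 5.49 in CD8aaT, again without overlap.

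In the other pairs these 2 kinases overlapped. Fgr was 6.17, 5.42 and 5.52 in CD4T, 5.92, 5.65 and 5.67 in NKT, 6.45 and 6.34 in B2 and 6.38 and 6.10 in B1. Src was 6.01, 5.58 and 5.47 in CD4T, 5.95, 5.73 and 5.74 in NKT, 6.49 and 6.65 in B2 and 6.54 and 6.33 in B1. In each splenic T cell group replicate 1 was the highest for both, on the arrays that also stood apart by their 18S signal, whose part in this was not tested. The order of Fgr by mean percentile was CD8abT (58.4), B2 (53.4), CD8aaT (52.9), B1 (51.4), NKT (51.3) and CD4T (50.5), and of these neighbours CD8abT alone lay clear of the next group (57.8 or higher against 54.0 or lower). It was not clear of all groups, since CD4T replicate 1, at 58.2, lay within the CD8abT range of 57.8 to 59.5. For Src the order was CD8abT (63.6), B2 (56.8), CD8aaT (56.1), B1 (55.1), NKT (52.4) and CD4T (50.0), with CD8abT again clear of the next group (61.3 or higher against 58.9 or lower).

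**Figure D1:**
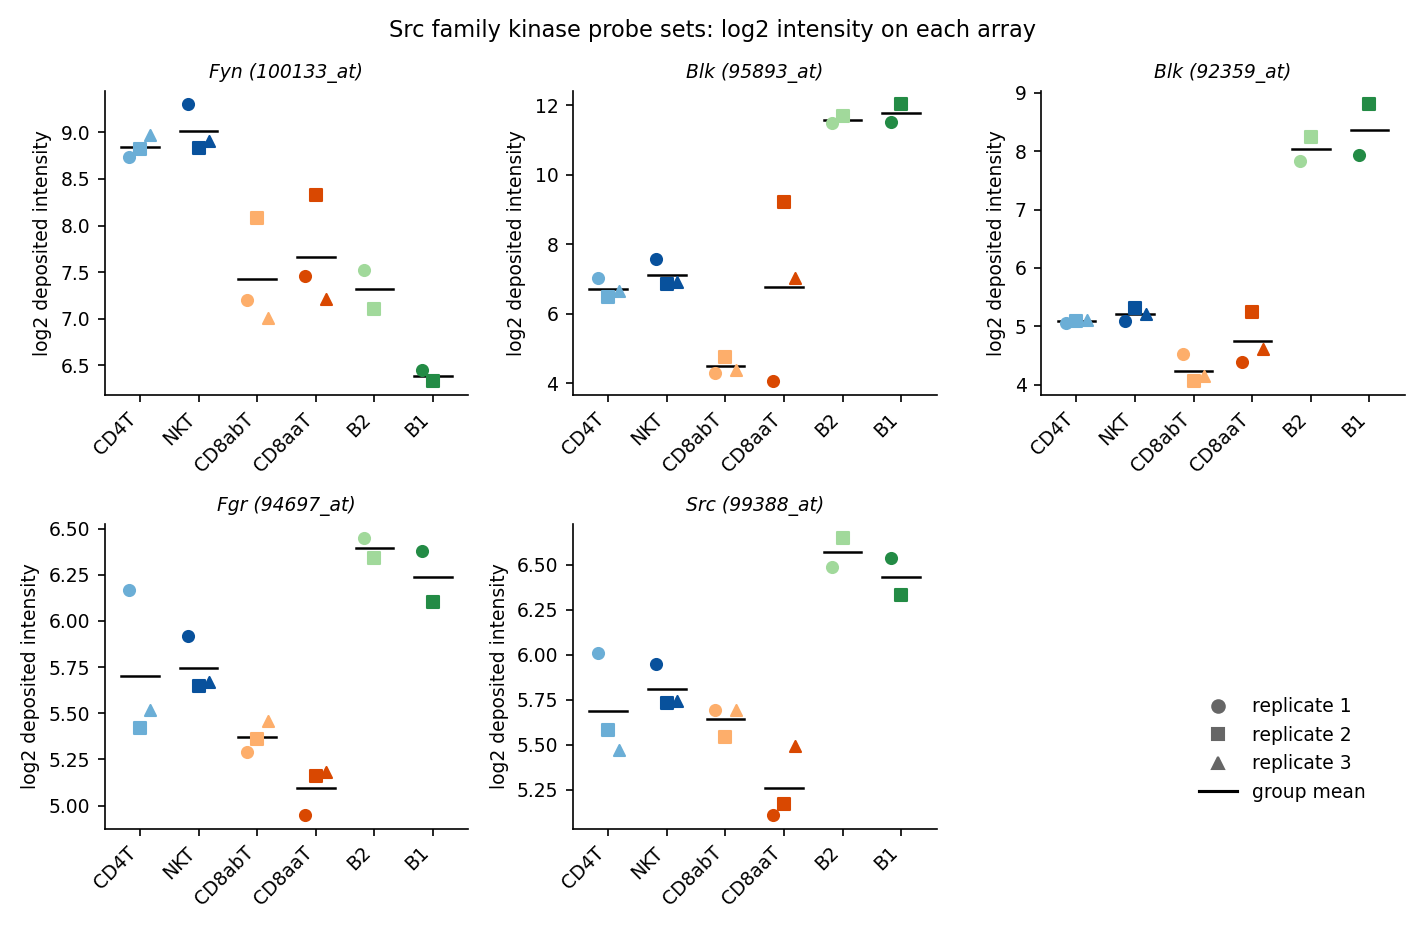
Log2 of the deposited intensity (vertical axis) of the 5 Src family kinase probe sets in the 6 groups, 1 point per array with its replicate number as the symbol and the group mean as a line; the vertical scale differs between panels, and heights compare only within a pair of groups. Blk 95893_at spreads from 4.06 to 9.21 over the 3 CD8aaT arrays.

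**Figure D2:**
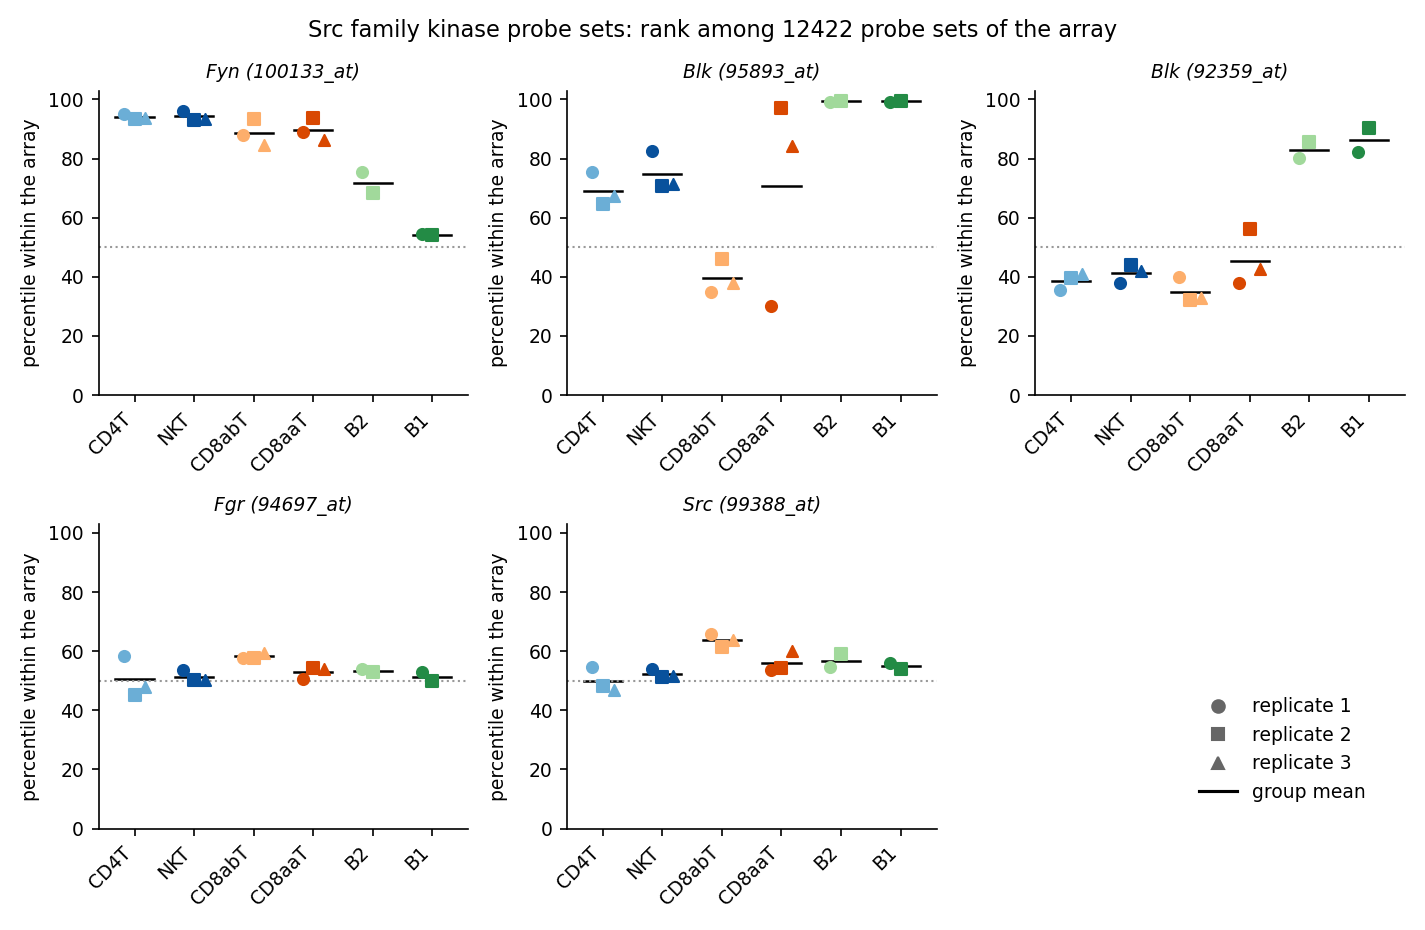
Percentile of the same probe sets among the 12422 of each array (vertical axis, dotted line at the middle), 1 point per array and lines at group means. Fyn stands at the 84.7th percentile or higher on every T cell array and near 54 in B1. On the B cell arrays Blk stands at 99.2 to 99.5 (95893_at) and at 80.3 to 90.3 (92359_at). Fgr and Src stay between 45.3 and 65.9.

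The innate-like minus adaptive difference of each member was fitted with limma over all 16 arrays, with p-values adjusted over all 12422 probe sets and called under 0.05. In NKT minus CD4T, 0 of 5 member probe sets were called, against 1.63% of all probe sets. With an unadjusted p under 0.05 there were also 0 (6.21% of all), and 0 had groups without overlap (12.2% of all). In CD8aaT minus CD8abT, 0 of 5 were called (0.185% of all), 2 had an unadjusted p under 0.05 (6.03% of all) and 2 did not overlap (11.3% of all). In B1 minus B2, 0 of 5 were called (1.14% of all), 1 had an unadjusted p under 0.05 (4.78% of all) and 1 did not overlap (32.3% of all, with 2 arrays a group). With the replicate number as a block, which the T cell groups allow, members called were again 0 in NKT minus CD4T and 0 in CD8aaT minus CD8abT, beside 4.84% and 3.20% of all probe sets. In B1 minus B2 the same fit called 1 of 5, Fyn, beside 2.84% of all probe sets, though with 2 arrays a group the pairing there could not be checked by the rule used.

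Fyn had its widest difference in the B cell pair, -0.93 ± 0.36 (SE, 95% interval -1.70 to -0.16), or a B1 level 0.525 of that of B2. Its adjusted p was 0.67 by limma, so it was not called, while with the replicate block it was called (-0.93 ± 0.16, adjusted p = 0.0071). In NKT minus CD4T it was 0.18 ± 0.29 (interval -0.45 to 0.80) and in CD8aaT minus CD8abT 0.24 ± 0.29 (-0.39 to 0.86). These intervals are wide, so the data do not show that Fyn was equal within either T cell pair. Without CD8aaT replicate 2 the CD8 value was -0.09.

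Blk 95893_at differed by 2.28 ± 0.83 in CD8aaT minus CD8abT, a 4.85-fold higher mean, with an unadjusted p of 0.016 and an adjusted p of 0.66 by limma. The value was decided by single arrays. It was 3.63 ± 0.47 (adjusted p = 0.0058) without CD8aaT replicate 1, 1.05 ± 0.59 without replicate 2 and 2.15 ± 0.96 without replicate 3, and -0.43 ± 0.32 with replicate 1 as the only CD8aaT array, an alternative chosen after seeing the values. The other probe set, 92359_at, was 0.50 ± 0.24 (adjusted p = 0.83). Blk in NKT minus CD4T was 0.40 ± 0.83 and 0.12 ± 0.24 on the 2 probe sets, and in B1 minus B2 0.19 ± 1.02 and 0.33 ± 0.29. The fit shares 1 spread over all groups, so the uneven CD8aaT arrays widen the errors of 95893_at. With only the arrays of the pair they were 0.23 in NKT minus CD4T and 0.22 in B1 minus B2 for 95893_at, and neither difference was called. For 92359_at the errors with only these arrays were 0.11 and 0.33.

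Src was -0.38 ± 0.16 in CD8aaT minus CD8abT (interval -0.72 to -0.05, adjusted p = 0.75), and Fgr -0.27 ± 0.18 (-0.65 to 0.11, adjusted p = 0.89). The 3' to 5' ratio of a control transcript is a measure of how far labelled RNA reaches. That of beta-actin also separated these groups, at 5.15 to 5.80 in CD8aaT and 6.57 to 11.6 in CD8abT arrays. That of GAPDH overlapped, at 7.37 to 20.9 in CD8aaT and 9.47 to 30.4 in CD8abT, against 5.11 to 8.48 on the splenic and peritoneal arrays. The part of either ratio in the values of the RTOC pair, Blk included, was not tested. In NKT minus CD4T Src was 0.13 ± 0.16 and Fgr 0.05 ± 0.18. In B1 minus B2 Src was -0.13 ± 0.19 and Fgr -0.15 ± 0.22.

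**Figure D3:**
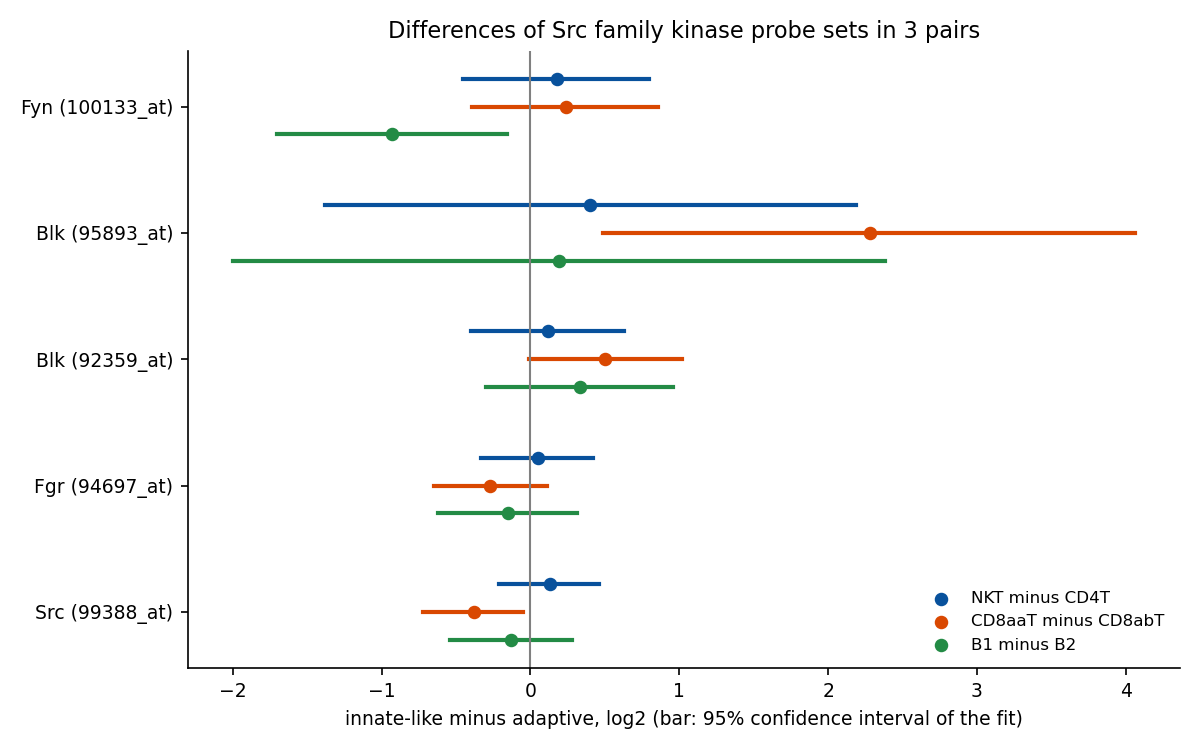
Innate-like minus adaptive difference on the log2 scale (horizontal axis) of each member probe set in the 3 pairs, as points with 95% confidence intervals of the limma fit as bars. The intervals of Fyn in B1 minus B2 (-1.70 to -0.16), Blk 95893_at in CD8aaT minus CD8abT (0.49 to 4.06) and Src in CD8aaT minus CD8abT (-0.72 to -0.05) do not reach 0, and none of the adjusted p-values passed the threshold.

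Whether an effect differed between pairs was tested as the difference of 2 differences. Of the 5 members 0 were called for the NKT pair against the CD8 pair (0.692% of all probe sets), for the NKT pair against the B pair (1.35%) and for the CD8 pair against the B pair (0.733%). With an unadjusted p under 0.05 there was 1 in each, beside 5.05%, 6.11% and 4.11% of all probe sets: Src in the first (0.51 ± 0.22) and Fyn in the others. For Fyn the NKT pair exceeded the B pair by 1.10 ± 0.46 (adjusted p = 0.63 by limma) and the CD8 pair exceeded it by 1.16 ± 0.46 (adjusted p = 0.90). With the replicate block these became 1.10 ± 0.20 (adjusted p = 0.0092, with 4.61% of all probe sets called) and 1.16 ± 0.20 (adjusted p = 0.011, with 2.21% called), so the call of a Fyn difference between B and T cell pairs depends on that block, which in B cells rests on 2 arrays a group. For Blk 95893_at the NKT pair minus the CD8 pair was -1.87 ± 1.18 and the CD8 pair minus the B pair 2.09 ± 1.32, neither of them called. Without CD8aaT replicate 1 both were called, at -3.23 ± 0.63 (adjusted p = 0.043) and 3.44 ± 0.69 (adjusted p = 0.048), and with array weights the first was (-2.47 ± 0.72, adjusted p = 0.046).

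Markers of B cells were set beside Blk, since Blk is one of their genes. In CD8aaT the summed intensity of 11 pan-B markers was 437, 437 and 445 in replicates 1, 2 and 3, against 413 to 495 in CD8abT. Their median percentile was 54.4, 48.2 and 51.3 on these CD8aaT arrays, against 96.4 to 97.5 on B cell arrays. The part of these markers in the uneven Blk values was not tested. On these 3 CD8aaT arrays Ms4a1, which encodes CD20, was 5.72, 5.68 and 6.11 on the log2 scale, and Cd22 was 4.68, 4.60 and 4.70. Cd79b, a B cell receptor signalling chain, was 6.18, 6.91 and 6.58, in the same order as Blk but within the CD8abT range of 5.72 to 6.94. By limma 0 of the 11 pan-B markers were called in CD8aaT minus CD8abT, with 7 above 0 and a median difference of 0.07, beside a median of -0.05 over all probe sets.

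By summed intensity, the lists of gamma-delta T cell, macrophage and dendritic cell genes did not have the order of Blk over the CD8aaT arrays. The gamma-delta and IL-17-type list (6 measured genes) summed to 903, 902 and 610 in replicates 1, 2 and 3, and its gamma segment Trgv4, which shares sequence with other segments, was 9.28, 9.19 and 8.37. The median percentile of the gamma-delta list did have the order of Blk, at 48.9, 52.7 and 49.7. In CD8abT that median was 49.1, 47.9 and 50.8. The macrophage list (14 genes) summed to 371, 344 and 355 and the dendritic cell list (8 genes) to 539, 509 and 529. Sums of 4 lists did have the order of Blk, with replicate 2 highest and replicate 1 lowest: pan-T markers (1837, 3591 and 2068), immature thymocyte genes (451, 760 and 535), T cell receptor signalling (4169, 5961 and 4978) and the myeloid and integrin partners of the kinases (648, 760 and 670). They had the same order of replicates in CD8abT (2327, 4813 and 3889 for pan-T, 622, 1297 and 788 for thymocyte genes, 5336, 7395 and 6410 for T cell receptor signalling, 643, 830 and 644 for the myeloid and integrin partners), where Blk stayed low. Their part in the Blk values was not tested.

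In the splenic T cells the summed B cell markers and Blk 95893_at were both highest on replicate 1 of each group. The pan-B sum was 1568 in CD4T replicate 1 against 957 and 902, and 1928 in NKT replicate 1 against 981 and 1004. Sums of several other lists were also highest there. The pan-T sum was 4999, 4288 and 4492 in CD4T and 5154, 4800 and 4728 in NKT. The macrophage sum was 780, 598 and 554, and 965, 804 and 825. Sums of T cell receptor signalling, immature thymocyte genes, kinase regulators and recruiters, and myeloid and integrin partners were lowest there in both groups. These replicate 1 arrays also stood apart by their ribosomal control, whose part was not tested. Ms4a1 was 8.96, 7.68 and 7.50 in CD4T and 9.30, 7.69 and 7.83 in NKT. Not every marker had this order: Pou2af1, a B cell transcriptional coactivator, was 5.13, 5.84 and 6.13 in CD4T and 5.41, 5.39 and 5.45 in NKT. The part of these markers in the splenic Blk signal was not tested. Blk 92359_at did not have this order, with replicate 1 the lowest of both groups.

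**Figure D4:**
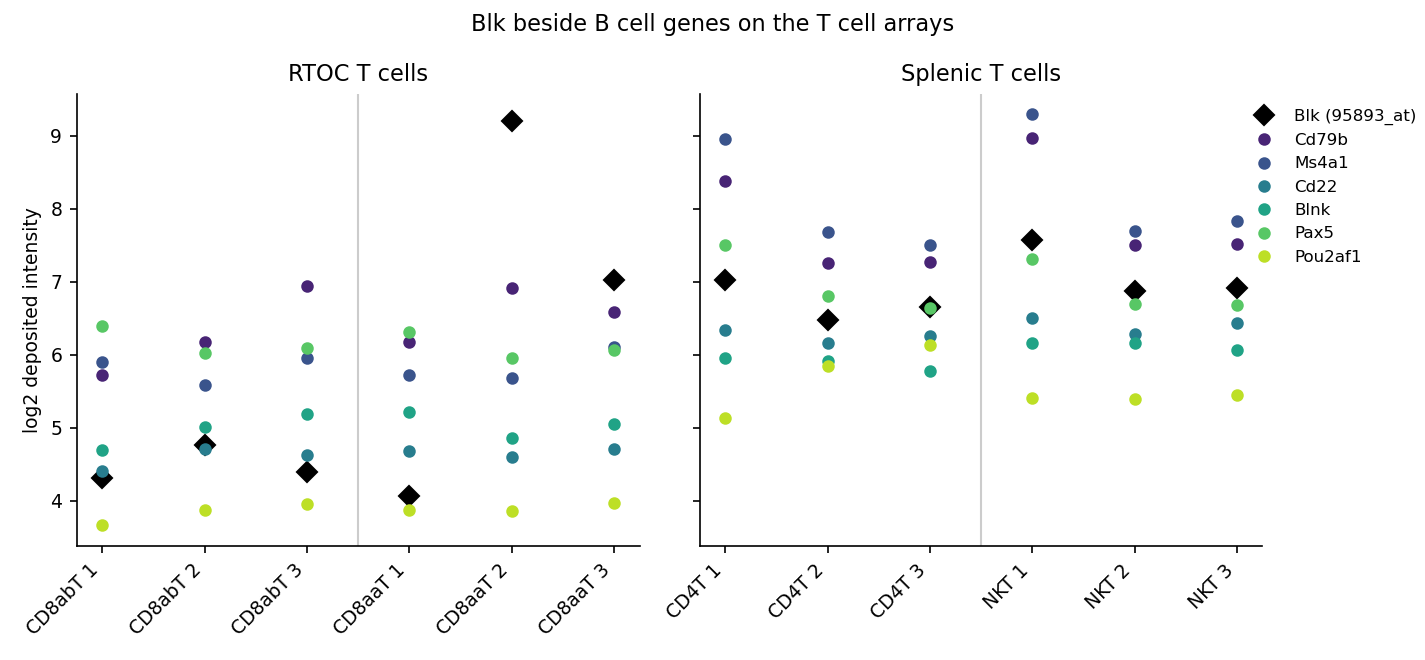
Log2 of the deposited intensity (vertical axis) of Blk 95893_at (black diamonds) and of 6 pan-B markers (coloured points) on each T cell array. Heights compare only within a pair of groups. In RTOC cells Blk reaches 9.21 on CD8aaT replicate 2 while Ms4a1 stays between 5.59 and 6.11, and in splenic cells Ms4a1, Cd79b, Pax5 and Blk are highest on replicate 1 of each group.

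The other measured kinases of the Src family and its relatives were dim in all groups. Yes1, a broadly expressed close relative of Src, ran from the 18.9th to the 30.4th percentile, and Frk, mainly an epithelial kinase, from the 7.2nd to the 24.4th. Of this list 4 of 5 genes were measured, and by limma 0 were called in any of the 3 pairs. Yes1 was -0.16 ± 0.13, -0.04 ± 0.13 and 0.20 ± 0.16 in the NKT, CD8 and B pair, and Frk -0.02 ± 0.19, 0.12 ± 0.19 and -0.05 ± 0.23.

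Transcripts of proteins that hold, release or place Src family kinases differed in a few cases. For this and the following lists, the shares called over all probe sets were 1.63% in NKT minus CD4T, 0.185% in CD8aaT minus CD8abT and 1.14% in B1 minus B2, and the median differences over all probe sets were -0.03, -0.05 and -0.05. Of 18 measured regulators and recruiters 2 rose in NKT cells, 0 passed in CD8aaT and 1 rose in B1, and 0 fell in any pair, with median differences of 0.10, 0.03 and -0.03. In NKT the adaptor Dok2, a substrate of these kinases that dampens signalling, was 8.07, 8.22 and 8.10 against 7.30, 6.98 and 7.05 (1.01 ± 0.16, adjusted p = 0.0024 by limma). Unc119, which binds the lipid-modified end of Src family kinases, was 8.03, 7.28 and 7.44 against 6.87, 6.50 and 6.43 (0.99 ± 0.23, adjusted p = 0.048). Groups did not overlap for either gene. Dok2 kept its call under all 25 alternatives run for it, and Unc119 under 9 of 25, losing it without any 1 of the NKT arrays, CD4T replicate 2 or 3, any of the CD8aaT arrays, CD8abT replicate 1 or 2, or either B2 array.

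In B1 the phosphatase Ptpn22, which acts with Csk to dephosphorylate the activating tyrosine of these kinases, was 10.46 and 10.65 against 7.64 and 7.60 in B2 (2.93 ± 0.50, adjusted p = 0.0073 by limma). The call was lost without B2 replicate 1, B2 replicate 2 or B1 replicate 2, each of which leaves 1 array in a group. The kinase Csk itself was 8.11 and 8.03 in B1 against 8.51 and 8.49 in B2, a difference that was not called. Ptprc was 9.85 and 10.34 against 10.08 and 10.83.

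Receptors and adaptors on which the kinases act were read in the same way. Of 19 measured genes of T cell receptor signalling, 0 were called in NKT minus CD4T (median -0.04), 1 fell in CD8aaT (median -0.23) and 0 were called in B1 minus B2 (median -0.17). The 1 that fell was Cd8a (-0.80 ± 0.14, adjusted p = 0.03 by limma), a coreceptor chain that binds Lck and a gene of the sort gate, which kept its call under 13 of 25 alternatives and lost it without any 1 array of its pair except CD8abT replicate 3, and without CD4T replicate 2, NKT replicate 2 or NKT replicate 3. Of 16 genes of B cell receptor signalling 3 fell in B1 (median -0.18): the inhibitory receptors Cd72 (-4.05 ± 0.46) and Cd22 (-0.87 ± 0.17), whose tails these kinases phosphorylate, and the complement receptor Cr2 (-2.06 ± 0.19). Cd72 kept its call under all 25 alternatives. Cr2 kept its call under the 24 run for it (-2.12 to -0.99), since the filter on dim probe sets left it out. Even in B2 Cr2 was dim, at 5.85 and 5.97 against array medians of 6.25 and 6.21. Cd22 lost its call without B2 replicate 2, B1 replicate 1 or B1 replicate 2. Cd72 was also the 1 that rose in NKT (1.90 ± 0.38), at 6.85, 7.74 and 7.80 against 4.53, 5.90 and 6.27, a call lost without NKT replicate 2 or 3. In CD8aaT 0 of the 16 were called on the brightest probe set of a gene, and 1 was called higher when any probe set could count. Counted in that wider way, 1 of the 19 T cell receptor signalling genes was called higher in NKT.

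Of 11 measured partners of Fgr, Lyn and Src in myeloid and integrin signalling 1 rose in NKT, Tyrobp, an adaptor whose tyrosines Src family kinases phosphorylate (1.76 ± 0.36, adjusted p = 0.021 by limma), and 0 passed in the other pairs. Its call was lost without any 1 of the NKT arrays or CD4T replicate 2 or 3. Of 14 macrophage markers 3 were called higher in NKT (Lyz2, Mpeg1 and Csf1r), with sums of 804 to 965 against 554 to 780 in CD4T. In B1 2 were called, Lyz2 and Mpeg1, with sums of 1597 to 1811 against 1147 to 1160 in B2. Of 6 measured NK cell receptor genes 3 were called higher in NKT, Klrd1 (2.69 ± 0.37), Klra3 (2.24 ± 0.14) and Klrk1 (2.18 ± 0.15), and the list's sums were 942 to 1442 against 234 to 297 in CD4T, a population gated as NK1.1-. Fgr, itself a myeloid gene, was called in neither pair, and the part of the macrophage and NK receptor genes in the Tyrobp value was not tested.

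The genes most like each member were found by the correlation of percentiles over the 16 arrays, in which arrays of a group share their cell type, so the values describe 6 groups more than 16 points. For Fyn they were the T cell receptor segment Trbv1 (r = 0.96), Notch1 (0.959), a receptor that directs T cell fate, and Slc12a7 (0.955). For Blk 95893_at they were Snapin (0.867), Cyp7a1 (0.858) and Zfp97 (0.849), lower values than for Fyn. For Fgr they were Hivep3 (0.919), Atp5d (0.911) and Pnpla2 (0.909), and for Src they were Atoh7 (0.916), Aplnr (0.907) and Lama4 (0.904). Fgr and Src correlated with each other at 0.83, and Fyn with Blk at -0.51 (95893_at) and -0.89 (92359_at). Fgr and Src stayed near the middle of every array, where RMA values alone do not show expression. Their correlations therefore describe a narrow range of ranks.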

How the data were processed

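RNA of sorted cells was extracted with TRIZOL, amplified and hybridised as biotinylated cRNA, per the labels' protocols. The deposited values are intensities on a linear scale, made by the authors with RMA per the submitters' processing notes. No source used here states the RMA settings or the set of arrays it was run on. RMA compresses differences of dim probe sets.

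Of 12488 probe sets 66 array controls were left out. Of the 12422 kept, the platform annotation paired 10833 with 1 symbol, 396 with several and 1193 are not listed there. Log2 intensities were fitted with limma 3.58.1 in R 4.3.3 (lmFit, eBayes, 6 group means, two-sided), with Benjamini-Hochberg adjustment over 12422 and a threshold of 0.05. The code was tested on simulated data. Gene lists used the brightest probe set of a gene. The members were all named, as were genes of the lists that were called, at most 6 a list and pair, and the 3 genes most like each member. Members and lists were chosen with earlier results of these data known. The series calls its replicates biological, with no word on separate animals, so p-values cover only this spread, which may be technical.

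Deviations of same-numbered arrays correlated for NKT with CD4T (0.76, 0.65 and 0.67) and for CD8aaT with CD8abT (0.64, 0.60 and 0.66), so the numbers were taken to pair T cell samples, a reading of the values since no label states it. Replicates 2 and 3 of NKT and CD4T also correlated across numbers (0.57 and 0.67). In B1 and B2 (0.69) 2 arrays a group are too few for that rule. Alternatives were the replicate block, an offset of 32, quantile and median scaling, the arrays of a pair alone, array weights, another variance prior, a filter on dim probe sets and leaving out arrays. Promoter windows came from RefSeq, GRCm38.p6.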

Additional observations from a re-analysis of the deposited data

How the results depend on the processing

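By limma 0 member differences were called in the chosen fit. Of 765 values under alternatives, 752 stayed uncalled and 13 were called, and 0 called values had the opposite sign. Uncalled values did change sign, among them Fyn in CD8aaT minus CD8abT (-0.09 to 0.56 when 1 array was left out) and Fgr in NKT minus CD4T (-0.10 to 0.28). With the replicate block, Fyn was called in B1 minus B2 (-0.93 ± 0.16, adjusted p = 0.0071 by limma) and in both differences from the B pair, and it changed no other member's call. Array weights, whose estimation stopped before convergence, called Fgr (0.26) and Src (0.18) in NKT minus CD4T, Blk 95893_at in CD8aaT minus CD8abT (2.92) and all 3 of these (0.48, 0.45 and -2.47) in the NKT pair minus the CD8 pair. Without replicate 1 of every group, Blk 95893_at was called in CD8aaT minus CD8abT (3.54 ± 0.59, adjusted p = 0.039). The remaining 3 are those of Blk without CD8aaT replicate 1. The causes were not tested.

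Counts of called probe sets over the whole array moved more. In the order NKT minus CD4T, CD8aaT minus CD8abT, B1 minus B2, then NKT minus CD8, NKT minus B and CD8 minus B pair, they were 202, 23, 142, 86, 168 and 91. With the replicate block they were 601, 398, 353, 375, 573 and 275, with array weights 4034, 278, 271, 1121, 767 and 200, and without replicate 1 of every group 356, 190, 227, 363, 354 and 154. An offset of 32 gave 9 for CD8aaT minus CD8abT, 214 for B1 minus B2 and 256 for NKT minus B pair. The arrays of the pairs alone gave 2 for CD8aaT minus CD8abT, 50 for B1 minus B2, 53 for NKT minus CD8 pair and 42 for CD8 minus B pair. The filter on dim probe sets gave 45 for CD8aaT minus CD8abT. With replicate 1 as the only CD8aaT array, chosen after seeing the data, CD8aaT minus CD8abT gave 10, NKT minus CD8 pair 45 and CD8 minus B pair 44. Leaving out 1 array gave 134 to 242, 10 to 57, 64 to 164, 45 to 166, 101 to 218 and 35 to 102. Percentiles among named probe sets alone moved by at most 1.6. Of 42 list counts, 2 went from 0 to 1 when any probe set of a gene could count. These were T cell receptor signalling in NKT minus CD4T and B cell receptor signalling in CD8aaT minus CD8abT. The count of NK cell receptor genes called higher in NKT went from 3 to 4. Reruns of the named pathway genes were added after their calls were seen. With the arrays of the pair alone, Unc119, Cd8a, Cd22, Tyrobp and, in NKT minus CD4T, Cd72 were not called. Quantile scaling and the other variance prior ended the calls of Unc119 and Cd8a, an offset of 32 that of Unc119 and median scaling that of Cd8a.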

Other observations

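On the CD8aaT array where Blk was highest, several other named genes were also far above replicate 1 of that group, listed here because their values were seen to be high. The prohormone convertase Pcsk1 was 4.24, 7.36 and 5.06 in replicates 1, 2 and 3, and the semaphorin receptor Plxnd1 4.62, 7.26 and 5.85. Il18r1, a chain of the interleukin 18 receptor, was 4.55, 7.07 and 5.27. The membrane proteins Tmem176a and Tmem176b were 4.14, 6.75 and 5.28, and 6.54, 8.96 and 6.79. For these 5 genes, as for Blk, replicate 2 was the highest and replicate 1 the lowest, and replicate 3 lay closer to replicate 1 in each, while Blk 95893_at (4.06, 9.21 and 7.02) lay nearer to replicate 2. In CD8abT Pcsk1 was 4.34, 3.95 and 3.73 and Plxnd1 was 5.57, 5.54 and 5.64, with replicate 2 not above replicate 1 for either, whereas Tmem176b was 6.05, 6.49 and 6.15. In all, 10 of 12422 probe sets were more than 2 above replicate 1 on replicate 2.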
